A study of Mus musculus with 4 samples.

Results

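The genes described here are 10 of the Eph and ephrin family, measured in single-cell mRNA of the E16.5 mouse penis. They are the receptor genes *Epha3*, *Epha4*, *Epha7*, *Ephb1*, *Ephb2* and *Ephb3* and the ephrin genes *Efna1*, *Efna5*, *Efnb1* and *Efnb2*. These 10 were taken from a list of symbols, out of 22 Eph and ephrin genes among the 32287 features of the deposited matrices. The study asked what the loss of a population of cells that come from outside the penis does to urethra closure, and 4 male genitalia libraries bear on it. The 2 DTA- libraries are from embryos that carry the *Rosa* diphtheria toxin (DTA) allele without *Nr5a1-Cre*, and the 2 DTA+ libraries are from embryos with the same allele and *Nr5a1-Cre*, so that toxin was made in cells with a history of *Nr5a1* expression. The methods also give the ablated embryos a *Rosa-LSL-tdTomato* reporter allele, while the genotype given for the controls, which the labels call WT, names no reporter. The same Cre also acts in the testes and adrenals, so the loss of these cells from the penis and the loss of hormones from those glands cannot be told apart in these libraries. The labels do not say how many embryos a library holds, so the p-values below measure the spread between 2 samples per genotype.

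Eph receptors are receptor tyrosine kinases, and their ligands, the ephrins, are held on the surface of neighbouring cells. Ephrin-A proteins are attached to the membrane by a lipid anchor and ephrin-B proteins cross it, and contact between cells can signal into the cell with the receptor and also into the cell with the ephrin. The family is known for repulsion and sorting of cells at tissue boundaries, for guidance of axons and for migration. In mice, loss of *Ephb2* together with *Ephb3*, or of signalling through the cytoplasmic part of ephrin-B2, leaves the urethra open.

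The matrices hold counts of UMIs (unique molecular identifiers, 1 for each mRNA molecule caught in a droplet) for 11343 to 12580 cell barcodes and 50779551 to 73577028 UMIs per library. After the filters on UMIs, mitochondrial and globin counts, 6573 to 8810 cells per library were kept. Mesenchyme-like cells, defined by clusters with markers such as *Pdgfra* and *Col1a1*, numbered 5997, 7179, 7114 and 8329 in DTA- 1, DTA- 2, DTA+ 1 and DTA+ 2, the order in which samples are given throughout. Epithelium-like cells, with markers such as *Epcam* and *Krt5*, numbered only 109, 94, 159 and 95. *Nr5a1* itself had 1 or 2 UMIs in every library, and the *tdTomato* reporter had 0 UMIs in both DTA- and 3579 and 3140 in the DTA+ libraries. Pairs of libraries shared 31 to 48 cell barcodes. In droplet data, free RNA adds UMIs to cells that do not express a gene, and the macrophage-like cells serve below as the measure of it, with the limit that a count covers counting error only.

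The 10 genes lie apart in the GRCm38 genome. *Epha3* (chr16:63543534-63864175, minus strand), *Epha4* (chr1:77367185-77515088, minus strand) and *Epha7* (chr4:28813131-28967499, plus strand) encode the A-class receptors. *Ephb1* (chr9:101922128-102354693, minus strand), *Ephb2* (chr4:136647539-136835988, minus strand) and *Ephb3* (chr16:21204755-21223305, plus strand) encode the B-class receptors. The ephrin genes are *Efna1* (chr3:89271733-89281142, minus strand), *Efna5* (chr17:62604184-62881317, minus strand), *Efnb1* (chrX:99136130-99148991, plus strand) and *Efnb2* (chr8:8617434-8661242, minus strand). *Epha3* and *Ephb3* share a chromosome, as do *Epha7* and *Ephb2*, and the members of each pair do not overlap.

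The promoters of *Epha7*, *Ephb1* and *Epha3* are shown because these are the 3 genes called in more than 1 of the 13 separately fitted mesenchymal populations below. Each window runs 5′ to 3′ on the gene's own strand, from 250 bases before to 50 bases after the start of the gene in RefSeq (GRCm38.p6), with CG dinucleotides in capitals. They lie at chr4:28812881-28813180 (plus strand), chr9:102354644-102354943 (minus strand) and chr16:63864126-63864425 (minus strand).
Epha7: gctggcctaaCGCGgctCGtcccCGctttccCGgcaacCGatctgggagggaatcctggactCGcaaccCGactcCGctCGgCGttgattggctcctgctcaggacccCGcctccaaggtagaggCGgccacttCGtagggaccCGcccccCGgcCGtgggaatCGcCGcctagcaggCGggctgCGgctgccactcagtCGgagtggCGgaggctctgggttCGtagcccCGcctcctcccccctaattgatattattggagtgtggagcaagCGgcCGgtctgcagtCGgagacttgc
Ephb1: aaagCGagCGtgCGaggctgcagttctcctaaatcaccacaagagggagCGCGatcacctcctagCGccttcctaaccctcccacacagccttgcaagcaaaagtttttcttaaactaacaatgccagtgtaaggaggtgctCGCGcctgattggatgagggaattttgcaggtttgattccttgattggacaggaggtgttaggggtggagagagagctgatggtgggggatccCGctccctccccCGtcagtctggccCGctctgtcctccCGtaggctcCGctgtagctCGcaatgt
Epha3: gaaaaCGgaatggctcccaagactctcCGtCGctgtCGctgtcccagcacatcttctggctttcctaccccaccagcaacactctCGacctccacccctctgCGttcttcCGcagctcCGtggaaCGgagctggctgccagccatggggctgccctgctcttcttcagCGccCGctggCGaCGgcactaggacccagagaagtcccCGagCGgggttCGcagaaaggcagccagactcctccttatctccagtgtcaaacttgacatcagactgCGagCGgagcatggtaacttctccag
The *Epha7* window holds 28 CG dinucleotides and 67% G or C, the *Epha3* window 18 and 60.7%, and the *Ephb1* window 14 and 55.7%. Over the 12 windows that RefSeq gives for the 10 genes the number was 14 to 38, whereas the median over all 32851 promoters of that length was 7, and 36.3% of all promoters had 14 or more. The letters AGAACA, the half-site of steroid receptor motifs, were searched on both strands, which also covers TGTTCT. They were found in 0 of the 12 windows and in 19% of all promoters (6233), which says only that these letters are not in these windows.

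All 10 genes were detected in the penis, and 7 of them were higher in mesenchyme-like than in epithelium-like cells in every one of the 4 samples. The values are CPM, the UMIs of a gene per 1000000 UMIs, of the summed cells. As the libraries count 1 end of each mRNA, the values do not scale with gene length, and levels of different genes are not ranked here. The members were left out of the genes used for clustering, but cells were grouped by expression, so levels by cell type are given with no test.

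Among the receptors, *Epha3* averaged 61.2 ± 14.4 CPM (SD, n = 4) in mesenchyme-like cells and 5.64 ± 4.31 in epithelium-like cells, and *Ephb1* 36.8 ± 17.4 against 4.23 ± 4.89. *Epha4* averaged 181 ± 18.3 against 67.9 ± 24.0, and *Epha7* 81.8 ± 25.8 against 13.8 ± 11.5. The 4 receptors were thus mesenchymal, with the values of the 2 cell types apart in all samples. *Ephb2* averaged 30.3 ± 3.63 against 9.65 ± 4.05, also apart. *Ephb3* averaged 26.9 ± 5.55 against 13.4 ± 11.7, with overlapping samples.

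Among the ephrins, *Efna1* alone was higher in the epithelium in every sample, at 40.0 ± 5.61 CPM against 17.4 ± 3.34. *Efnb2* was close in both compartments, at 113 ± 28.3 in the epithelium and 140 ± 25.2 in the mesenchyme, and its samples overlapped. *Efna5* (21.9 ± 11.9 and 78.7 ± 15.8) and *Efnb1* (34.3 ± 7.43 and 89.8 ± 15.9) were mesenchymal. Macrophage-like cells, which are not known for these genes, had 0 or 1 UMI of *Epha3* and 1 or 2 of *Epha7* per library (3.24 to 6.37 CPM for *Epha7*). They had no UMI of *Ephb1*. The epithelial values of these 3 genes rest on 0 to 10 UMIs per sample, at median depths of 3319 to 3909 UMIs per cell against 5152 to 5760 in the macrophage-like cells. In the DTA- samples the epithelium had 2.35 and 2.79 CPM of *Epha3* and none of *Ephb1*, which is within the macrophage range, and 7.04 and 2.79 CPM of *Epha7*. In the DTA+ samples it had 11.7 and 5.71 CPM of *Epha3*, 8.36 and 8.57 of *Ephb1* and 16.7 and 28.6 of *Epha7*, each above the highest macrophage value. Other cells were not all as low. Erythroid-like cells reached 41.2 CPM of *Epha3*, 77.7 of *Epha7* and 37.2 of *Ephb1*, each above the DTA+ epithelial values. The erythroid-like cluster also had 7 of the 9 mesenchyme markers enriched and the pericyte-like cluster 4, against 0 in the epithelium-like cluster. The erythroid-like cluster may therefore not hold erythroid cells alone. Pericyte-like cells reached 42.2 CPM of *Epha3*, and at most 7.53 of *Epha7* and 5.02 of *Ephb1*. Schwann-like cells reached 25.3 CPM of *Epha7*, and at most 7.82 of *Epha3* and 2.61 of *Ephb1*. Mast cell-like cells reached 32.1 CPM of *Epha3* and 27.9 of *Epha7*, and at most 3.28 of *Ephb1*. Endothelium-like cells reached 15.2 CPM of *Ephb1* and 15.9 of *Epha7*, and at most 4.82 of *Epha3*. Whether the epithelial values of either genotype exceed background was not tested.

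**Figure D1:**
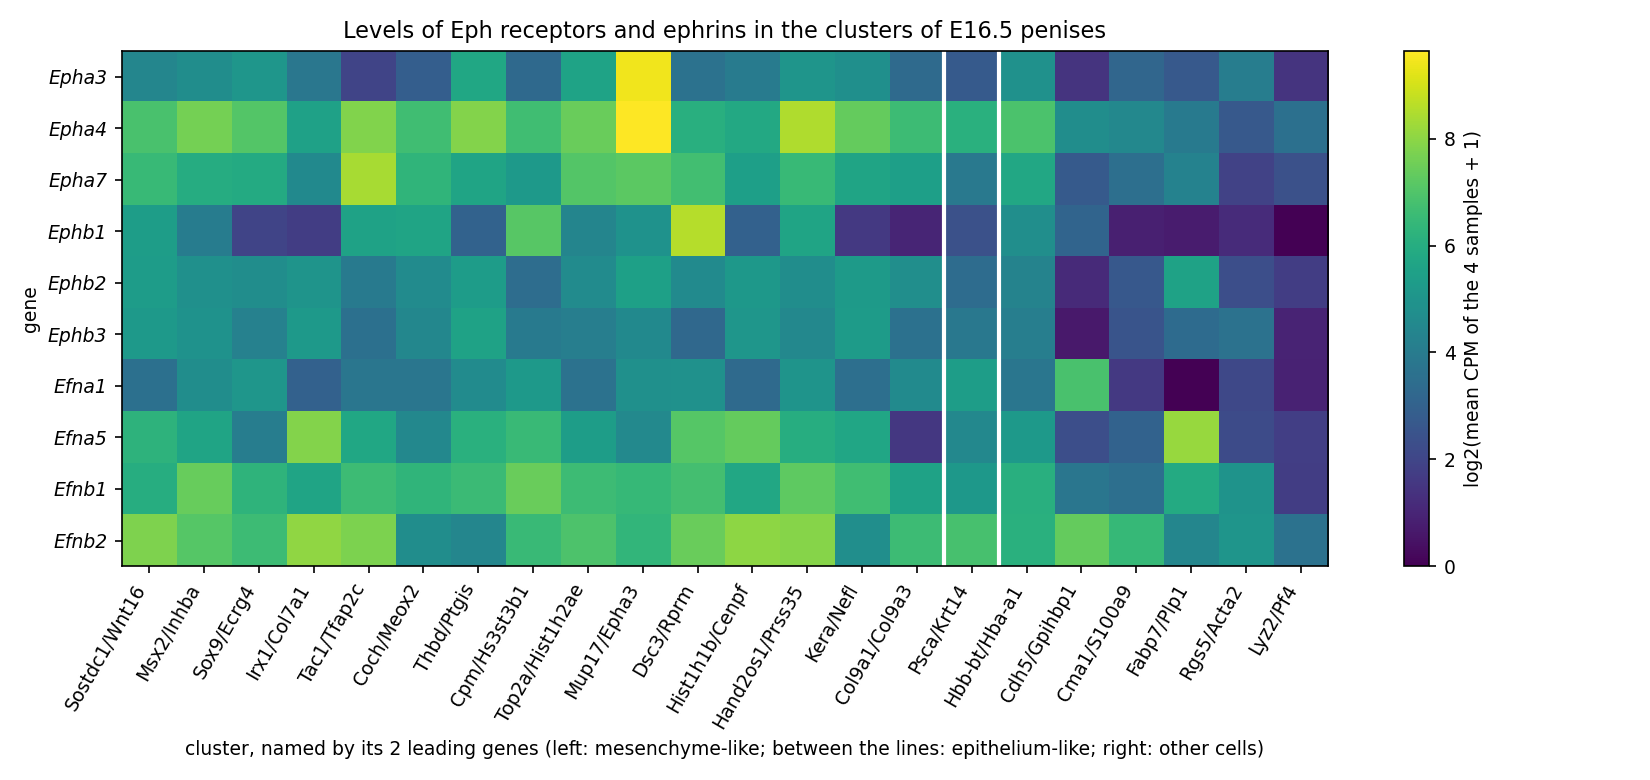
Level of each of the 10 genes (rows) in 22 of the 23 cell clusters with at least 20 cells in every sample (columns, named by their 2 leading genes), coloured by log2(mean CPM of the 4 samples + 1). *Epha3* and *Epha4* are highest in the Mup17/Epha3 cluster (699 and 799 CPM), *Epha7* in the Tac1/Tfap2c cluster (330 CPM) and *Ephb1* in the Dsc3/Rprm cluster (379 CPM).

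Within the mesenchyme the receptors marked different places. *Epha3* was highest in the Mup17/Epha3 cluster, named by its leading genes, at 699 ± 131 CPM (SD, n = 4), and its samples stood above those of every other cluster. This cluster is periurethra-like, that is, it carries markers of the mesenchyme around the urethra such as *Foxl2* and *Hhip*. In the Thbd/Ptgis cluster *Epha3* was at 52.3 ± 17.6 CPM, and from there down to the lowest each cluster overlapped the next. The lowest *Epha3* was in macrophage-like cells (1.72 CPM) and in endothelium-like cells (1.74 CPM).

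*Epha4*, a receptor that binds ephrins of both classes, was also highest in the Mup17/Epha3 cluster (799 ± 38.1 CPM), whose samples stood above those of every other cluster, and was at 356 ± 51.0 CPM in Hand2os1/Prss35. *Epha7* was highest in the distal glans-like Tac1/Tfap2c cluster (330 ± 89.8 CPM), whose samples overlapped those of the next, Mup17/Epha3 (147 ± 74.5). In the Tac1/Tfap2c cluster *Epha7* was also among the 10 leading genes.

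*Ephb1* was concentrated in a pair of clusters. It averaged 379 ± 149 CPM in the Dsc3/Rprm cluster and 142 ± 15 in the Cpm/Hs3st3b1 cluster, each above the next in all samples, and 49.0 ± 15.9 in Hand2os1/Prss35. It had 0 UMIs in macrophage-like cells. Of the other 2 B-class receptors, *Ephb2* was highest in Schwann-like cells (46.2 ± 14.8 CPM) and *Ephb3* in the Thbd/Ptgis cluster (45.5 ± 10.9), and both overlapped the next clusters. Both were lowest in endothelium-like cells, *Ephb2* at 1.24 CPM and *Ephb3* at 0.57.

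The ephrins were placed differently. *Efna1* was highest in endothelium-like cells (115 ± 19.6 CPM), above the epithelium in all samples, and had 0 UMIs in Schwann-like cells. *Efna5* was highest in Schwann-like cells (286 ± 38.9), next in the Irx1/Col7a1 cluster (231 ± 7.44) and then in Hist1h1b/Cenpf (162 ± 26.8), with each of the first and second above the next in all samples. *Efnb1* was highest in Cpm/Hs3st3b1 (173 ± 12.4) and Msx2/Inhba (167 ± 9.35), which overlapped. *Efnb2* was highest in Irx1/Col7a1 (266 ± 43.3), Hist1h1b/Cenpf (259 ± 33.4) and Hand2os1/Prss35 (234 ± 41.5), which overlapped, and it was at 20.2 CPM in Thbd/Ptgis.

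Across the 23 clusters, which share the 4 libraries, the members most alike in their log2 levels were *Ephb2* and *Ephb3* (Pearson r = 0.86), followed by *Epha4* and *Epha7* (r = 0.84). Among 6340 genes with enough counts, the gene most like *Epha3* was *Mfap5* (r = 0.83), the one most like *Epha4* was *Mme* (r = 0.91), and the one most like *Epha7* was *Vegfa* (r = 0.89). *Ephb1* was most like *Ppp2r3a* (r = 0.88), *Ephb2* most like *Fez1* (r = 0.91) and *Ephb3* most like *Col5a1* (r = 0.93). Of the ephrins, *Efna1* was most like *Afdn* (r = 0.83), *Efna5* most like *Epb41l3* (r = 0.87), *Efnb1* most like *Efna2*, another ephrin (r = 0.96), and *Efnb2* most like *Rpap3* (r = 0.75).

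**Figure D2:**
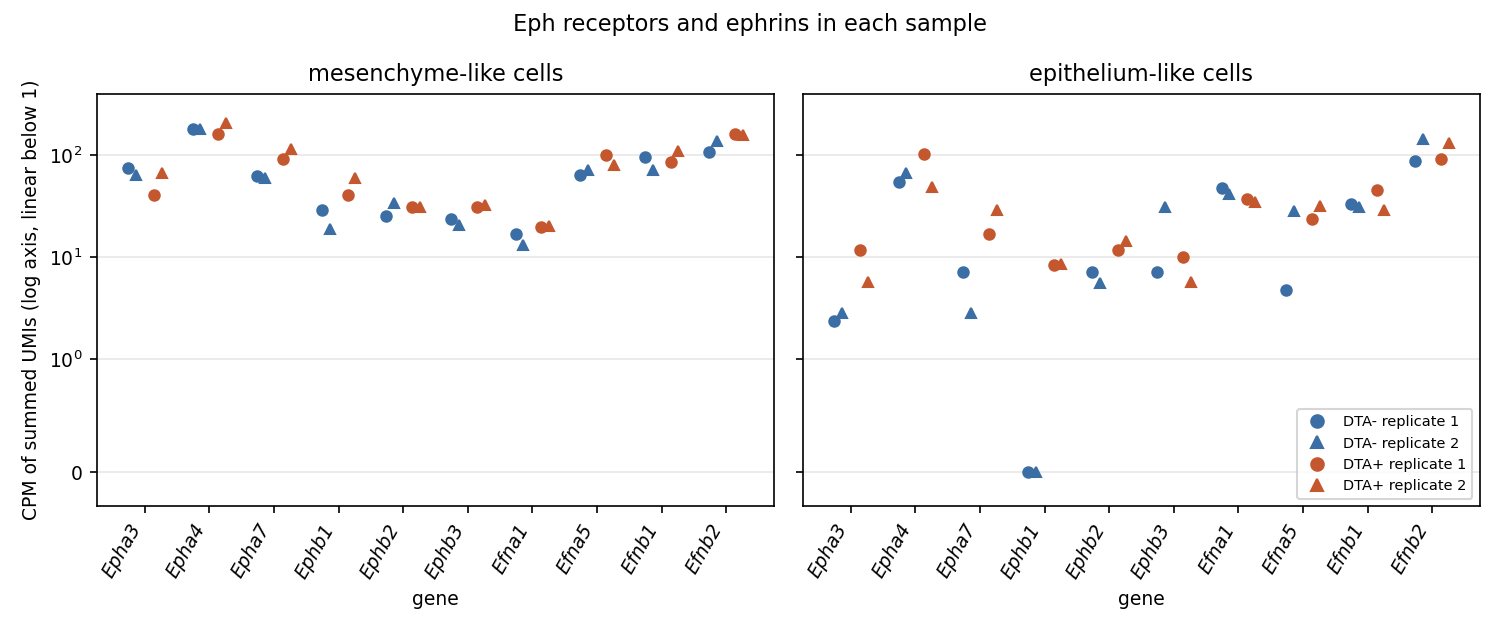
CPM of the summed UMIs, without TMM scaling, of each of the 10 genes in mesenchyme-like (left) and epithelium-like cells (right), 1 point per sample on an axis that is logarithmic above 1 and linear below. In the mesenchyme the 2 DTA+ samples lie above the 2 DTA- samples for *Epha7* (91.8 and 114 against 61.8 and 59.8) and *Ephb1* (40.4 and 59.3 against 28.6 and 18.9), and in the epithelium *Ephb1* is at 0 in both DTA- samples.

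The next comparison asked whether the 10 genes differ between DTA- and DTA+ penises in the mesenchyme taken as a whole. None of the 10 passed the quasi-likelihood test of edgeR, adjusted by Benjamini-Hochberg over 15259 genes, of which 1.24% passed (an adjusted p under 0.05). At an unadjusted p under 0.05 there were 4 of the 10 and 2633 of all genes, and DESeq2 and edgeR's likelihood ratio test each called 2 of the 10, where they called 4.18% and 6.21% of all genes.

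*Epha7* had 63.6, 61.1, 90.01 and 110.4 normalised CPM, scaled by edgeR's TMM factors. Neither DTA+ sample overlapped the DTA- samples, both of which were lower. The log2 fold change of DTA+ against DTA- was 0.68 (SE 0.137, 95% interval 0.36 to 1.01, adjusted p = 0.0717 in edgeR's test). *Ephb1* had 29.4, 19.3, 39.6 and 57.6, again with no overlap, and a log2 fold change of 1.00 (SE 0.248, adjusted p = 0.117). Without DTA+ 1 the values were 0.82 for *Epha7* and 1.24 for *Ephb1*. With 2 samples per genotype, the samples of a gene can lie apart with no difference behind it. The share of all genes with no overlap was not counted, so overlap is given here and below as description only.

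*Ephb3*, 1 of the pair of receptors known for urethra closure, had 24.4, 21.1, 30.4 and 31.1 normalised CPM in the mesenchyme. The genotypes did not overlap, and the log2 fold change was 0.43 (SE 0.131, adjusted p = 0.175 in edgeR's test). Its partner *Ephb2* had 26.1, 34.8, 30.1 and 30.1, with the DTA+ samples between the DTA- ones and a log2 fold change of -0.01 (adjusted p = 0.974). *Epha3* had 76.8, 64.9, 40.0 and 64.2, with DTA+ 2 next to DTA- 2 (-0.44, SE 0.224, adjusted p = 0.363), and *Epha4* overlapped (-0.05, adjusted p = 0.892).

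Of the ephrins, *Efnb2*, the ligand known for urethra closure, had 108.8, 138.5, 156.6 and 153.3 normalised CPM in the mesenchyme. In DTA+ both samples were above the DTA- ones, at a log2 fold change of 0.33 (adjusted p = 0.299 in edgeR's test), which became 0.51 without DTA- 2. *Efnb1* had 97.3, 72.0, 84.3 and 105.3, which overlapped, and its log2 fold change of 0.16 turned to -0.04 without DTA- 2 and to -0.01 without DTA+ 2. *Efna1* (0.36, adjusted p = 0.317) and *Efna5* (0.35, adjusted p = 0.283) were not called.

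The mix of cells in the mesenchyme differed between the libraries: a cluster led by *Iyd* had 1, 9, 535 and 303 cells and one led by *Ly6a* had 237, 793, 19 and 7. When the same number of cells of each cluster was drawn from every sample, an alternative added after the data were seen, edgeR's test called 3 of the 10 and 3.83% of all genes. The 3 were *Epha3*, lower in DTA+ (-0.52, adjusted p = 0.0391), *Epha7*, higher (0.74, adjusted p = 0.00706), and *Ephb1*, higher (0.77, adjusted p = 0.00827). Without the clusters that had fewer than 20 cells in any sample, it called none of the 10 and 0.935% of all genes.

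In the mesenchyme the summed CPM of marker lists for other cell types also differed. The 7 erythroid markers summed to 1938 to 2979 in DTA- and 726 to 1815 in DTA+, the 8 smooth muscle markers to 254 to 392 and 107 to 140, the 7 pericyte markers to 136 to 147 and 177 to 181, and the 7 distal glans markers to 1386 to 1607 and 1915 to 2325. The part of these shifts in the results above was not tested.

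The epithelium was compared in the same way, and none of the members was called. Only 5 of the 10 had enough UMIs to enter the test, and 0% of 4945 genes passed, with 240 at an unadjusted p under 0.05 and 0 called by DESeq2. *Efna1* had 20, 15, 22 and 12 UMIs, and its log2 fold change of -0.39 had an adjusted p of 0.956 in edgeR's test. *Efnb2* had 37, 51, 54 and 46 UMIs (-0.14). *Efnb1* had 14, 11, 27 and 10 UMIs. *Ephb2* (3, 2, 7 and 5 UMIs) and *Ephb3* (3, 11, 6 and 2) had too few to enter the test. No difference was detected at these counts among the 5 members tested.

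With no upper limit on UMIs per cell the epithelium-like cells rose to between 143 and 248 per sample, and all 10 members were tested. None was called, 0.00917% of 10904 genes passed. At an unadjusted p under 0.05 there were 847 genes, 3 of them members. DESeq2 gave an adjusted p to only 3 of the 10 members and called 0 of them. It called 12 of the 3082 genes with an adjusted p (0.389%). *Efna1* had 45.0, 62.4, 38.6 and 32.4 normalised CPM, with both DTA+ samples below both DTA- samples and a log2 fold change of -0.56 (adjusted p = 0.638). *Efna5* had 26.7, 26.6, 44.2 and 37.6, with both DTA+ samples above (0.63, SE 0.194, adjusted p = 0.638). *Ephb1* had 5, 3, 15 and 7 UMIs (1.55, adjusted p = 0.638). Under the main limits the summed markers of several other cell types were higher in both DTA+ samples of the epithelium: those of endothelium (11.7 to 47.4 CPM in DTA- and 50.2 to 57.1 in DTA+), pericytes (25.8 to 53.0 and 80.01 to 122), mast cells (8.37 to 11.7 and 17.1 to 125), Schwann cells and glia (21.1 to 27.9 and 33.4 to 45.7), periurethra (58.7 to 64.2 and 71.4 to 134), corpus cavernosum (143 to 165 and 176 to 240.0) and distal glans (269.8 to 340.3 and 426 to 463). The 9 general mesenchyme markers overlapped (610 to 1886 in DTA- and 954 to 971 in DTA+), as did the erythroid markers (2586 to 32535 and 7235 to 7429). The proliferation markers were lower (751 to 1007 and 535 to 623). The part of these shifts in the epithelial values was not tested.

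For the genes known for urethra closure, the epithelium without the upper limit gave *Efnb2* 90.3, 121.0, 125.8 and 125.7 normalised CPM, with the DTA+ samples above the DTA- ones by a small margin (0.26). *Ephb2* had 14.9, 12.3, 15.9 and 16.6, *Efnb1* 39.3, 40.1, 45.7 and 32.4, and *Ephb3* 14.9, 20.4, 12.4 and 16.6. Of these, *Efnb1* and *Ephb3* overlapped between genotypes. The order for *Ephb3* was not that of the mesenchyme, and the next test addresses that difference.

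Whether the genotype difference itself differed between epithelium and mesenchyme was tested as an interaction in edgeR, and no member was called. Of 14822 genes 0.236% passed, and without the upper limit 0.12% of 15811. DESeq2 also called 0 members. At an unadjusted p under 0.05 in edgeR there were 656 genes, 3 of them members, and without the upper limit 1035 genes, 2 of them members. Among the 3 was *Ephb1* (9.18, SE 3.95), which had 0 UMIs in the epithelium of both DTA- samples. Without the upper limit the lowest unadjusted p among the members was that of *Efna1*, whose log2 fold change was lower in the epithelium by -0.88 (SE 0.257, adjusted p = 0.337). *Ephb3* followed (-0.81, SE 0.297, adjusted p = 0.536).

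The mesenchymal populations were then fitted separately, which asked in which cells the members differ. Over 13 populations, 124 tests of the 10 members gave 14 calls (11.3%), 12 of them higher in DTA+ and 2 lower, in 6 populations. Over all genes 3.95% of tests gave a call, 1.92% higher and 2.03% lower. The fold was above 0 in 98 of the 124 tests (79%), against 50% for all genes, and the 13 populations come from the same 4 libraries and are not independent. The 10 members were chosen with earlier results of these data known, and the other Eph and ephrin genes gave 1 call in 91 tests (1.1%). These shares therefore describe the chosen genes and are no test of the family.

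**Figure D3:**
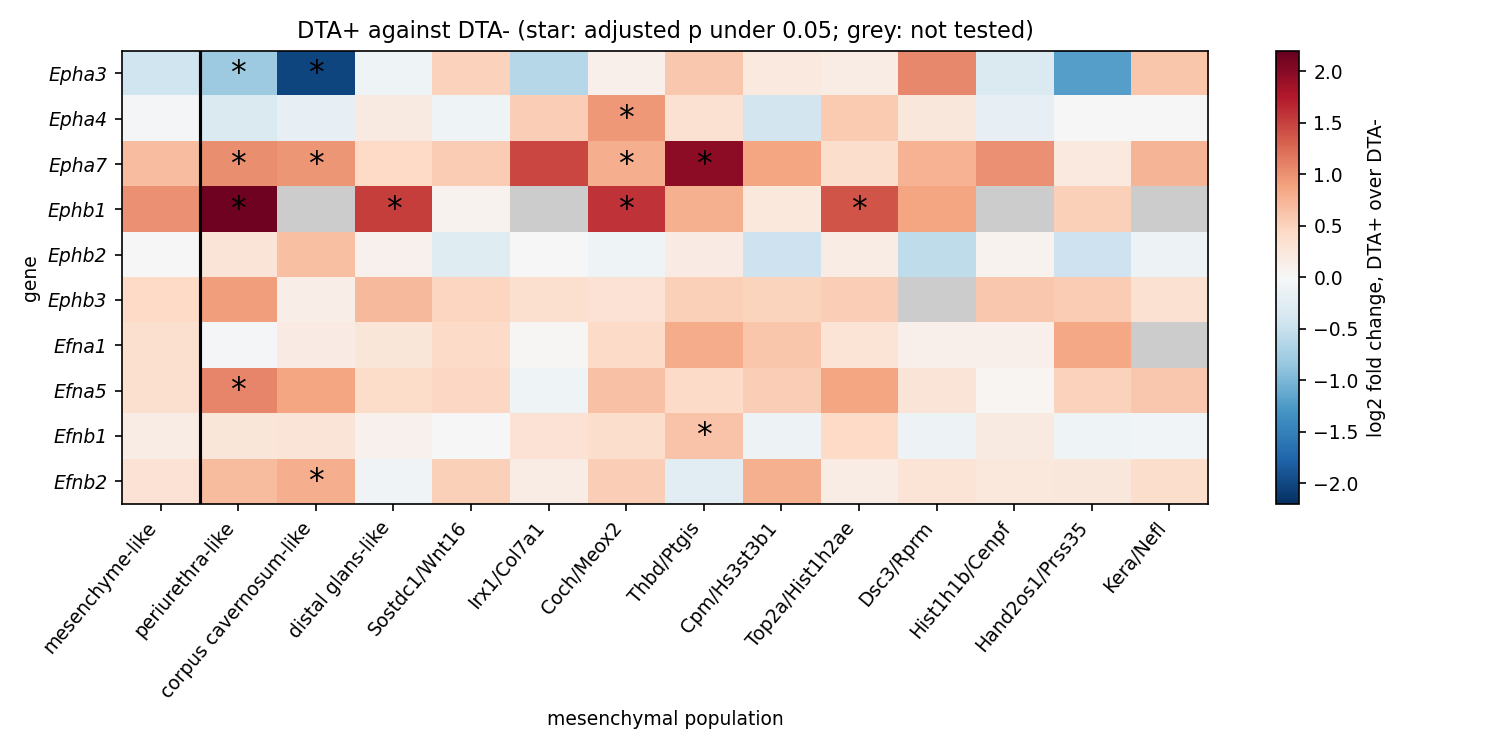
Log2 fold change, DTA+ against DTA-, of each member (rows) in the whole mesenchyme (first column) and in each separately fitted mesenchymal population, as colours from blue (lower in DTA+) to red (higher), with stars for an adjusted p under 0.05 and grey where the gene was not tested. *Epha7* is above 0 in all 13 mesenchymal populations, and *Epha3* is lowest in corpus cavernosum-like cells (-2.02).

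*Epha7* was above 0 in 13 of 13 populations and called in 4, *Ephb1* in 9 of 9 and called in 4, and *Ephb3* in 12 of 12 and called in 0. Of 7570 genes tested in 12 or more populations, 4.03% were above 0 in all of them and 6.08% below in all. *Ephb1*, tested in 9, is outside that set, and no such share was taken for genes tested in fewer populations. *Efna5* was above 0 in 12 of 13, *Efna1* in 11 of 12, *Efnb2* in 11 of 13, *Efnb1* in 9 of 13 and *Epha4* in 8 of 13. *Epha3* was above 0 in 7 of 13 although it was called lower in 2, and *Ephb2* was above 0 in 6 of 13 and called in 0. The summed CPM of the 7 distal glans markers was higher in both DTA+ samples in all 13 populations. That of the 7 pericyte markers was higher in 9, that of the 6 periurethra markers in 8 and that of the 10 endothelium markers in 7. The smooth muscle sum was lower in 9 and the erythroid, mast cell and proliferation sums in 6 each, while the proliferation sum was higher in 3. The part of these shifts in the members' folds was not tested.

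**Figure D4:**
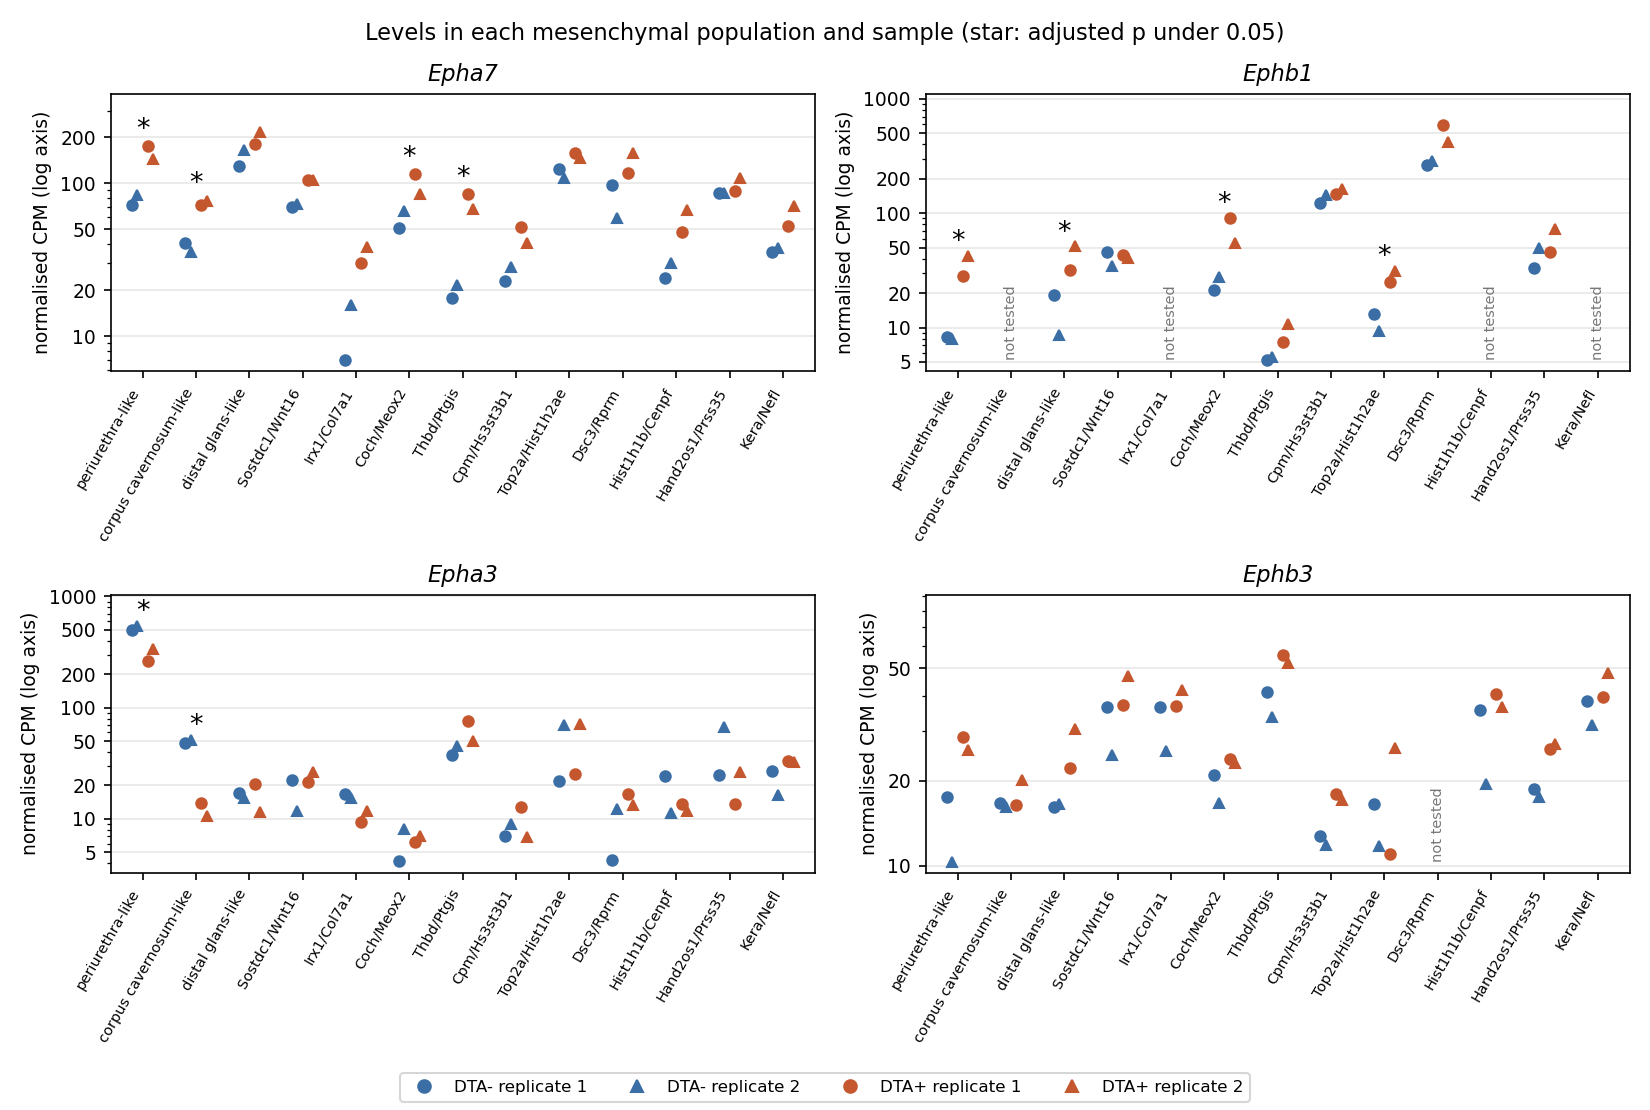
Normalised CPM (log axis) of *Epha7*, *Ephb1*, *Epha3* and *Ephb3* in the 13 mesenchymal populations, 1 point per sample, with stars for an adjusted p under 0.05 in edgeR's test and a mark where a gene had too few counts to be tested. *Epha7* and *Ephb1* have 4 stars each, *Epha3* 2, both with lower DTA+ points, and *Ephb3* none.

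In periurethra-like cells, the mesenchyme next to the urethra, edgeR's test called 4 of 10 members, where 3.37% of 10982 genes passed. The population joins the Mup17/Epha3 cluster (297, 265, 177 and 410 cells) and 1 other cluster. *Ephb1* had 8.24, 7.95, 28.1 and 42.6 normalised CPM. The genotypes did not overlap, DTA+ being higher, and the log2 fold change was 2.15 (SE 0.284, adjusted p = 0.00319). It passed without any 1 sample, at 1.78 to 2.39, and in the Mup17/Epha3 cluster by itself, at 2.39 (adjusted p = 4.6e-05).

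*Epha7* had 72.8, 84.2, 175 and 144 normalised CPM in the periurethra-like cells, with no overlap, and a log2 fold change of 1.02 (SE 0.163, adjusted p = 0.00781 in edgeR's test). It passed in the Mup17/Epha3 cluster by itself, at 1.08 (adjusted p = 0.00214). Without DTA- 1 the value was 0.92 (adjusted p = 0.121) and without DTA- 2 it was 1.12 (adjusted p = 0.0694).

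*Epha3* had 503, 541, 261 and 335 normalised CPM in the periurethra-like cells. The genotypes did not overlap, DTA+ being lower, and the log2 fold change was -0.81 (SE 0.157, adjusted p = 0.0226 in edgeR's test). Without DTA- 1 it was -0.86 (adjusted p = 0.149) and without DTA- 2 it was -0.76 (adjusted p = 0.232). As the Mup17/Epha3 cluster held most *Epha3* and differed in its share of these cells, it was also fitted by itself. There *Epha3* had 778, 840, 609 and 568 CPM, with no overlap, and was not called (-0.51, adjusted p = 0.0842). *Epha4*, in the same cells, had 667, 744, 485 and 640 normalised CPM and a log2 fold change of -0.32 (adjusted p = 0.381), which was -0.55 without DTA+ 2.

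Of the ephrins, *Efna5* had 21.9, 21.1, 52.1 and 39.5 normalised CPM in the periurethra-like cells. The DTA+ samples were both higher, by 1.07 on the log2 scale (SE 0.219, adjusted p = 0.0278 in edgeR's test). Without DTA- 1 the value was 1.10 (adjusted p = 0.147), without DTA- 2 it was 1.05 (adjusted p = 0.180), and after thinning every cell to 1000 UMIs it was 0.80 (adjusted p = 0.365). DESeq2 did not call it either (adjusted p = 0.0750). *Efnb2* had 75.6, 92.2, 165 and 109, with no overlap, and a log2 fold change of 0.70 (adjusted p = 0.122 in edgeR's test), which was 0.98 without DTA+ 2. *Ephb3* had 17.6, 10.3, 28.7 and 25.7, also with no overlap (0.92, adjusted p = 0.121), and was at 1.00 without DTA+ 2. *Ephb2* had 32.6, 37.9, 45.3 and 40.2 (0.28) and *Efnb1* 81.7, 78.6, 82.3 and 108 (0.26), and neither was called. In these cells the 6 periurethra markers summed to 648 to 743 CPM in DTA- and 549 to 798 in DTA+, and the 7 distal glans markers to 1155 to 1282 and 1823 to 1874.

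In corpus cavernosum-like cells, which carry cartilage-type markers such as *Sox9* and *Col9a1*, 3 of 9 tested members were called, where 8.61% of 11068 genes passed. *Epha3* had 48.6, 51.5, 14.1 and 10.6 normalised CPM. Both DTA+ samples were below both DTA- samples, and the log2 fold change was -2.02 (SE 0.225, adjusted p = 1.83e-05 in edgeR's test). It passed without any 1 sample, at -2.23 to -1.83, and in the Sox9/Ecrg4 cluster by itself (-2.07, adjusted p = 1.31e-04). *Epha7* moved the other way, with 40.6, 35.7, 72.0 and 77.2 and a log2 fold change of 0.97 (SE 0.182, adjusted p = 0.0028), and passed without any 1 sample.

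*Efnb2* had 68.1, 72.5, 119 and 126 normalised CPM in the corpus cavernosum-like cells. Both DTA+ samples were higher, by 0.80 on the log2 scale (SE 0.161, adjusted p = 0.00434 in edgeR's test), and the value was 0.76 (adjusted p = 0.0845) without DTA+ 2 and 0.55 (adjusted p = 0.163) after thinning. *Ephb2* had 19.9, 19.4, 31.5 and 30.7, with no overlap (0.66, adjusted p = 0.0672). *Ephb3* had 16.7, 16.2, 16.5 and 20.1 (0.15) and *Efnb1* 78.0, 53.9, 72.3 and 89.1 (0.29), both overlapping, and *Efnb1* was at 0.60 without DTA- 1. *Efna5* had 9.2, 11.3, 23.0 and 14.4 (0.87, adjusted p = 0.0776), and was at 1.03 without DTA- 2. *Ephb1* had 4, 5, 11 and 10 UMIs and was too low to test. With no filter on low counts, none of the 3 calls held (*Epha3* at an adjusted p of 0.0558, *Epha7* at 0.112 and *Efnb2* at 0.112, with the fold changes almost as above). The 7 distal glans markers summed to 645 to 856 CPM in DTA- and 1081 to 1223 in DTA+, and the erythroid markers to 1387 to 2218 and 252 to 1066.

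In distal glans-like cells, which carry markers of the tip such as *Msx2* and *Tac1*, 1 of 10 members was called, where 4.43% of 11711 genes passed. *Ephb1* had 19.3, 8.69, 31.9 and 51.2 normalised CPM. The DTA+ samples were again both higher, by 1.52 on the log2 scale (SE 0.288, adjusted p = 0.00833 in edgeR's test). It passed without any 1 sample, at 1.10 without DTA+ 2 to 2.29 without DTA- 1, and did not pass in DESeq2 (adjusted p = 0.192). *Epha7* had 131, 165, 182 and 218, with no overlap (0.45, adjusted p = 0.101 in edgeR's test), and was at 0.60 without DTA- 2.

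The 2 clusters of the distal glans-like cells gave different values. In Tac1/Tfap2c, where *Epha7* was highest, it had 229, 280, 413 and 398 CPM and was called (0.63, adjusted p = 0.00135 in edgeR's test), as were *Ephb1* (1.75, adjusted p = 2.59e-05) and *Epha4* (0.54, adjusted p = 0.0156). In Msx2/Inhba no member was called, with *Epha7* at 0.31 (adjusted p = 0.573) and *Ephb1* at 1.24 (adjusted p = 0.174), and the difference between the clusters was not tested. The share of all genes that passed was not taken for either cluster by itself. Over the single periurethra-like, corpus cavernosum-like and distal glans-like clusters together it was 4.59%. Over both, *Ephb3* had 16.2, 16.6, 22.2 and 30.4 (0.72, adjusted p = 0.0735), with no overlap, and was at 0.72 without DTA- 2 and 0.89 without DTA+ 1. *Ephb2* had 21.8, 21.5, 26.5 and 20.6, *Efnb1* 138, 129, 142 and 142 (0.09), and *Efnb2* 138, 211, 133 and 192 (-0.08).

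The Thbd/Ptgis cluster, which carries markers of subdermal fibroblasts, had the largest relative difference of *Epha7* among the calls, where 13.4% of 10053 genes passed and 2 of 10 members did. *Epha7* had 17.9, 21.5, 85.2 and 68.2 normalised CPM. Both DTA+ samples were several times higher than both DTA- samples, by 1.96 on the log2 scale (SE 0.229, adjusted p = 4.94e-07 in edgeR's test), and it passed in every one of 10 alternative fits. *Efnb1* had 82.8, 66.1, 109 and 123 (0.63, adjusted p = 0.0195). Its call was lost without DTA- 2 (0.48, adjusted p = 0.101), without DTA+ 1 (0.73, adjusted p = 0.0823), without DTA+ 2 (0.54, adjusted p = 0.247), after thinning (0.29, adjusted p = 0.554) and in DESeq2 (adjusted p = 0.155). In this cluster the smooth muscle markers summed to 110 to 127 CPM in DTA- and 28.7 to 32.9 in DTA+.

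In the Coch/Meox2 cluster 3 of 10 members were called, where 9.26% of 9953 genes passed, and all 3 were receptors. *Epha4* had 60.1, 79.7, 123 and 148 normalised CPM (0.95, adjusted p = 0.00333 in edgeR's test), *Epha7* had 50.8, 66.0, 116 and 84.7 (0.79, adjusted p = 0.0183), and *Ephb1* had 21.4, 27.9, 90.7 and 55.3 (1.59, adjusted p = 8e-04). Both DTA+ samples were above both DTA- samples for each. *Epha4* was not called without DTA+ 2 (0.82, adjusted p = 0.0727), *Epha7* not without DTA- 1 (0.61, adjusted p = 0.106) nor without DTA+ 1 (0.54, adjusted p = 0.404), and *Ephb1* not without DTA+ 1 (1.17, adjusted p = 0.0832). After thinning, *Epha7* (0.71, adjusted p = 0.176) and *Ephb1* (1.12, adjusted p = 0.0689) were not called, and DESeq2 gave *Epha7* an adjusted p of 0.0556.

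In the proliferating Top2a/Hist1h2ae cluster 1 of 10 members was called, where 0.818% of 9540 genes passed. *Ephb1* had 13.04, 9.41, 25.2 and 31.5 normalised CPM, with no overlap, a log2 fold change of 1.38 (SE 0.324, adjusted p = 0.0494 in edgeR's test), and was not called without DTA- 2 (1.13, adjusted p = 0.0573), without DTA+ 2 (1.18, adjusted p = 0.443) or with RLE factors (1.38, adjusted p = 0.0593). DESeq2 gave it no adjusted p, and after thinning it was too low to test. No member was called in the other clusters, where the share of all genes that passed was 3.31% in Cpm/Hs3st3b1, 2.31% in Sostdc1/Wnt16, 1.72% in Hand2os1/Prss35, 0.606% in Irx1/Col7a1, 0.494% in Hist1h1b/Cenpf, 0.443% in Kera/Nefl and 0.0617% in Dsc3/Rprm. In Dsc3/Rprm, the place of highest *Ephb1*, the gene had 262, 286, 588 and 420 normalised CPM, and both DTA+ samples were higher (0.87, adjusted p = 0.162).

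The calls were recounted in clusters made after the libraries were integrated with Seurat's RPCA anchors, where 3.87% of all tests gave a call. *Epha7* was called higher in DTA+ in 7 of 18 clusters and above 0 in 18, *Ephb1* called higher in 5 of 13 and above 0 in 12, and *Ephb3* called in 0 of 16 and above 0 in 16. *Epha3* was called lower in 2 of 15, Sox9/Ecrg4 (-1.99, adjusted p = 1.16e-04 in edgeR's test) and Hand2os1/Prss35 (-1.85, adjusted p = 0.0183). In the main clusters Hand2os1/Prss35 had no call. In the periurethra-like Mup17/Epha3 cluster of the integrated clustering *Epha3* was not called (-0.49, adjusted p = 0.126). The share of all genes above 0 in every integrated cluster was not taken. In the 6 single clusters of the periurethra-like, corpus cavernosum-like and distal glans-like cells, where 4.59% of tests gave a call, *Epha7* was called higher in 4 of 6, *Ephb1* higher in 3 of 4 and *Epha3* lower in 2 of 4.

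The rest of the family and a list of genes known to act with Eph receptors and ephrins were counted in the same way. Of the 12 other Eph and ephrin genes, 9 had enough counts to be tested in any of the 13 populations, and their 91 tests gave 1 call (1.1%), *Efnb3*, which encodes ephrin-B3. In Thbd/Ptgis it had 24.4, 25.3, 58.0 and 49.7 normalised CPM, with no overlap (1.11, adjusted p = 0.00103 in edgeR's test). Of the signalling list, 39 genes were in the files, and its median log2 fold change in the mesenchyme was 0.07, against 0.34 for the members and 0.00 for all genes. None of the 39 was called in the mesenchyme, and none of 36 in the periurethra-like cells.

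Single members of that list were called in other cells. *Tiam1*, an exchange factor for Rac that ephrins and Eph receptors can recruit, was higher in corpus cavernosum-like cells (1.09, adjusted p = 0.0261 in edgeR's test), and *Adam10*, a protease that cuts ephrins from the cell surface, in distal glans-like cells (0.61, adjusted p = 0.0352). In Coch/Meox2 the G-protein regulator *Rgs3* (0.84), the kinase *Yes1* (0.87) and the Ras regulator *Rasa1* (0.65) were higher. In Thbd/Ptgis the exchange factor *Vav3* (2.08) and the phosphatase *Ptpn13* (0.84) were higher and the GTPase *Cdc42* was lower (-0.48), and in Cpm/Hs3st3b1 the kinase *Rock2* was higher (0.77). These are 9 calls, 8 higher and 1 lower, in 446 tests (2.02%), against 3.95% of the tests of all genes.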

How the data were processed

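Single-cell mRNA was measured in 2 DTA- and 2 DTA+ libraries of E16.5 male genitalia, grouped by their titles. The deposited matrices hold UMI counts per gene and cell, which the authors made with Cell Ranger 4.0.0 on mm10 plus reporter sequences and did not normalise. The methods of the study name an earlier Cell Ranger, and their UMI limits are worded in reverse. A cell was kept if its UMIs lay between 1000 and 7500 and mitochondrial genes made up no more than 25% of them, *Hba* genes 25% and *Hbb* genes 50%. Clusters were made in Seurat 5.3.0 (2000 variable genes without the 22 family genes, 30 principal components, resolution 0.8). To be called X-like, other than mesenchyme-like, a cluster needed 3 or more enriched markers of a class. Enriched meant found in 5% or more of cells, with a log2 fold of 0.8 or more and a prior of 10 CPM. At least 1 marker had to be among its 25 leading genes, with no class ahead of it in its 10 leading genes. Mesenchyme-like clusters had no epithelial, endothelial, pericyte, blood, glial, melanocyte or skeletal muscle class. They needed 3 or more mesenchyme markers enriched over the clusters with such a class. The naming limits were chosen with the data in view. Doublets were kept, since the automatic threshold of Scrublet (scanpy 1.11.5) marked only 0 to 48 cells per library.

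UMI counts were added up within each sample and population and tested by genotype in edgeR 4.0.16 under R 4.3.3 (TMM, filterByExpr, quasi-likelihood test). P-values were adjusted by Benjamini-Hochberg over all genes of a population with 20 or more cells in every sample, and a call is an adjusted p under 0.05. DESeq2 1.42.0, edgeR's likelihood ratio test, RLE factors, no filter, a replicate block, changed cell limits, classes or clusterings, cells thinned to 1000 UMIs and fits without each sample in turn were alternatives, and the tests were tried on simulated counts. The members, gene lists, markers and tests were chosen with earlier results of these data known. Named were the 10 members, the called genes of the other lists, and for each member the gene with the most similar levels over clusters. The *Ephb2*, *Ephb3*, *Efnb1* and *Efnb2* genes and called members are given in every sample, and further members given so were chosen after their values were seen. Promoters are from RefSeq (GRCm38.p6) and gene positions from the GENCODE annotation of GRCm38, and all 10 members matched. Further steps used Python 3.11.15, numpy 2.4.6, pandas 2.3.3 and matplotlib 3.10.9. The values of 2 mesenchymal clusters are not reported here.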

Additional observations from a re-analysis of the deposited data

How the results depend on the processing

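The replicate numbers are not said to pair the samples, and the deviations of same-numbered samples from their group means correlated at -0.342 in the mesenchyme and 0.107 in the epithelium without the upper limit. With the replicate block, edgeR called 327 genes in the mesenchyme (189 without it), 1 member there (*Ephb1*), 2 genes in the epithelium, and 11 members and 3.98% of all genes in the further clusters (6 and 3.41% without it), and *Efnb1* in the epithelium without the upper limit turned to -0.000306.

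In the mesenchyme 625 genes and 2 members were called by DESeq2, 948 and 2 by the likelihood ratio test, 1326 and 2 with no filter, 329 and 2 after thinning, 552 and 3 with matched cells, and 299 to 598 and 0 to 2 without 1 sample. In the epithelium 7 genes were called by the likelihood ratio test, 59 with no filter, 1 with no upper limit and 0 to 157 without 1 sample. The calls over all genes moved too. Without 1 sample, 1 to 7 members were called in the periurethra-like cells (0.871% to 8.16% of all genes), 2 to 4 in the corpus cavernosum-like (2.94% to 18.8%; with no filter 0 and 0.0385%), and 1 to 3 in the distal glans-like (3.5% to 9.75%; DESeq2 0 and 3.72%, likelihood ratio 2 and 6.99%, no filter 2 and 4.84%). In the further clusters 11 members were called by the likelihood ratio test (4.67% of all genes) and with no filter (2.82%), 2 after thinning (1.44%), and 6 to 12 without 1 sample (1.54% to 4.52%). The causes were not tested.

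Log2 fold changes of the tested members under the alternatives were counted in the mesenchyme and in the epithelium with and without the upper limit. They were also counted in the periurethra-like, corpus cavernosum-like and distal glans-like cells. In the further clusters only the called members were counted. Of these values 590 kept direction and side of the threshold, 29 gained a call, 29 lost one and 35 changed direction, none of the last among the 14 calls. Calls that other members gained in the further clusters are not included. Leaving out 1 sample in turn gave, in the mesenchyme, *Epha4* -0.23 to 0.11, *Ephb2* -0.21 to 0.21 and *Efnb1* -0.0420 to 0.40, and other settings turned *Epha4* to 0.0118 (thinned) and 0.00424 (no upper limit) and *Ephb2* to 0.11 (thinned), 0.0147 (no upper limit), 0.0126 (marker gate) and 0.0865 (matched cells). In the epithelium the ranges were -0.42 to 0.71 for *Epha4*, -0.0923 to 2.33 for *Efna5*, -0.26 to 0.45 for *Efnb1* and -0.43 to 0.19 for *Efnb2*, with *Epha4* at -0.21 without the limit and *Efnb2* at 0.0694 thinned and 0.26 without the limit. Without that limit they were -0.62 to 0.89 for *Epha3*, -0.45 to 0.0208 for *Epha4*, -0.16 to 1.05 for *Epha7* and -0.29 to 0.20 for *Efnb1* (-0.00562 with no filter). *Efna1* in the periurethra-like cells ran from -0.33 to 0.36 (0.15 thinned) and *Ephb3* in the corpus cavernosum-like from -0.000984 to 0.29. In the distal glans-like cells *Epha3* ran from -0.50 to 0.34, *Ephb2* from -0.0694 to 0.29, *Efna5* from -0.0506 to 0.68 and *Efnb2* from -0.39 to 0.23. The epithelium, with 94 to 159 cells per sample, limits what could be detected there.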

Other observations

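In endothelium-like cells, which entered no test, *Efnb2*, a marker of arterial endothelium, had 67.9, 152, 263 and 178 CPM in DTA- 1, DTA- 2, DTA+ 1 and DTA+ 2, from 32, 63, 116 and 70 UMIs. Both DTA+ samples were above both DTA- samples. *Efna1*, whose own level was higher in these cells than in the other clusters, had 99.7, 118, 102 and 142 CPM, which overlapped. In mast cell-like cells *Efnb2* had 13.1, 82.6, 151 and 99.8 CPM, from 92 UMIs over all 4 samples, again with both DTA+ samples higher. The leading genes of that cluster also included *S100a9* and *S100a8*, which are not on the mast cell marker list, so it may not hold mast cells alone. In macrophage-like cells *Efnb2* had 0, 35.7, 3.18 and 7.29 CPM.

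Some mesenchymal clusters were nearly confined to 1 genotype or library, so no genotype comparison within them was made. The Iyd/C130073E24Rik cluster had 1 and 9 cells in the DTA- and 535 and 303 in the DTA+ libraries, and in the latter *Efnb2* was at 164 and 179 CPM and *Ephb3* at 37.2 and 41.6. The Ly6a/Igfbp5 cluster had 237 and 793 cells in the DTA- libraries, with *Epha7* at 30.3 and 35.2 CPM and *Epha3* at 37.5 and 23.7, and 19 and 7 in the DTA+ ones. The smooth muscle-like Acta2/Actg2 cluster had 120 and 183 cells in DTA- and 29 and 10 in DTA+, and *Epha3* in its DTA- cells was at 66.8 and 54.6 CPM.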
